A study of Glycine max with 12 samples.

Results

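A set of 4 SWEET genes of soybean (Glycine max) was followed through roots with and without arbuscular mycorrhizal fungi, as the GmSWEET10 pair (Glyma.15G049200.Wm82.a2.v1 and Glyma.08G183500.Wm82.a2.v1) and a pair on chromosomes 4 and 6 (Glyma.04G198600.Wm82.a2.v1 and Glyma.06G166800.Wm82.a2.v1). They were given as a list of 4 gene IDs, whose choice was made with earlier results of these data known, and 3 of the 4 occur among the 49551 genes that the 12 deposited tables list. The annotation tag Wm82.a2.v1 is left off the IDs from here on. The tables hold no gene names or descriptions, so that the family name rests on the list and could not be checked against the files. Each of the 12 libraries is total RNA from root, 3 per group. NM roots received no fungus. Rhizophagus irregularis had colonized the Ri roots, and Ga-H and Ga-L roots carried Glomus aggregatum with high and with low colonization. All groups are the same organism and tissue, and no genotype, plant age or time after inoculation is given in the sources used here. It is also not stated whether replicate libraries are separate plants, and the p-values cover only the spread from library to library, which may be technical.

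SWEET proteins are membrane channels through which sugars pass along their concentration gradient, and plants use them to release sucrose or hexoses from cells. In a mycorrhizal root the plant feeds the fungus with sugars and lipids made from its own photosynthesis and receives phosphate and nitrogen in return. SWEET genes active in cells that hold arbuscules are known from other plants such as Medicago truncatula and potato. The GmSWEET10 genes are known for sugar delivery to the developing soybean seed. The title of the study names sugar metabolism and export as its subject.

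The libraries were of nearly equal depth, from 10182200 to 11054762 expected counts (estimated read counts per gene), so that 3 counts correspond to between 0.271 and 0.295 CPM (counts scaled to library size). Ri replicate 1 stood apart from the rest of its group. Over the genes tested other than the SWEET genes, its log2 CPM had a mean correlation of 0.908 with Ri replicates 2 and 3, and of 0.948 with the Ga-H, 0.940 with the Ga-L and 0.879 with the NM libraries. For Ri replicates 2 and 3 the means were 0.928 and 0.945 within their own group, and 0.925 and 0.948 with Ga-H. Replicate 3, too, was thus slightly closer to Ga-H, and replicate 1 had the lowest mean within the group. Results that rest on Ri replicate 1 are therefore given with and without it.

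The GmSWEET10 pair was close to absent from all roots. Glyma.15G049200 was listed in 0 of the 12 libraries, and 0 counts among 126834998 over the whole series allow up to 0.0237 CPM. Its partner Glyma.08G183500, for which the tables list 3 isoforms and a length of 1057 bases, had 2 counts (0.18 FPKM, fragments per kilobase, scaled to library size) in Ri replicate 3 and 1 count (0.09 FPKM) in Ga-L replicate 1. It was not listed in the other 10 libraries. Neither gene passed the filter on low counts, so neither has a test in any of the 6 comparisons, and no group could be told from another at this depth.

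The chromosome 4 and 6 pair was present at moderate or low levels in the Ga-H roots and in 2 of the 3 Ri libraries, and near 0 everywhere else. Glyma.04G198600, listed with 1 isoform of 864 bases, was not listed in any NM library. In the Ri libraries it had 0, 4.44 and 4.23 FPKM in replicates 1, 2 and 3. The Ga-H libraries held 2.66, 4.02 and 2.76 FPKM, and the Ga-L libraries 0.11, 0.23 and 0. All Ga-H values lay above all NM and Ga-L values, whereas Ri replicate 1 fell among the NM and Ga-L values and the other Ri libraries above every Ga-H library.

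Glyma.06G166800, listed with 3 isoforms, was high in the same 5 libraries. Its NM values were 0.06, 0 and 0 FPKM, from a single count in replicate 1. Ri replicate 1 had 0.07 FPKM, again from 1 count, against 5.08 and 3.65 in replicates 2 and 3. Ga-H gave 1.80, 4.87 and 1.91 FPKM, and Ga-L 0.13, 0.07 and 0.13. Ga-H lay above all Ga-L and NM values, and Ri overlapped both Ga-H and Ga-L. NM replicate 1, Ri replicate 1 and Ga-L replicate 2 were tied at 1 count. The gene length that the tables give was 1474 bases in the 5 libraries with many counts and 1445 bases in the 5 with 1 or 2.

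**Figure D1:**
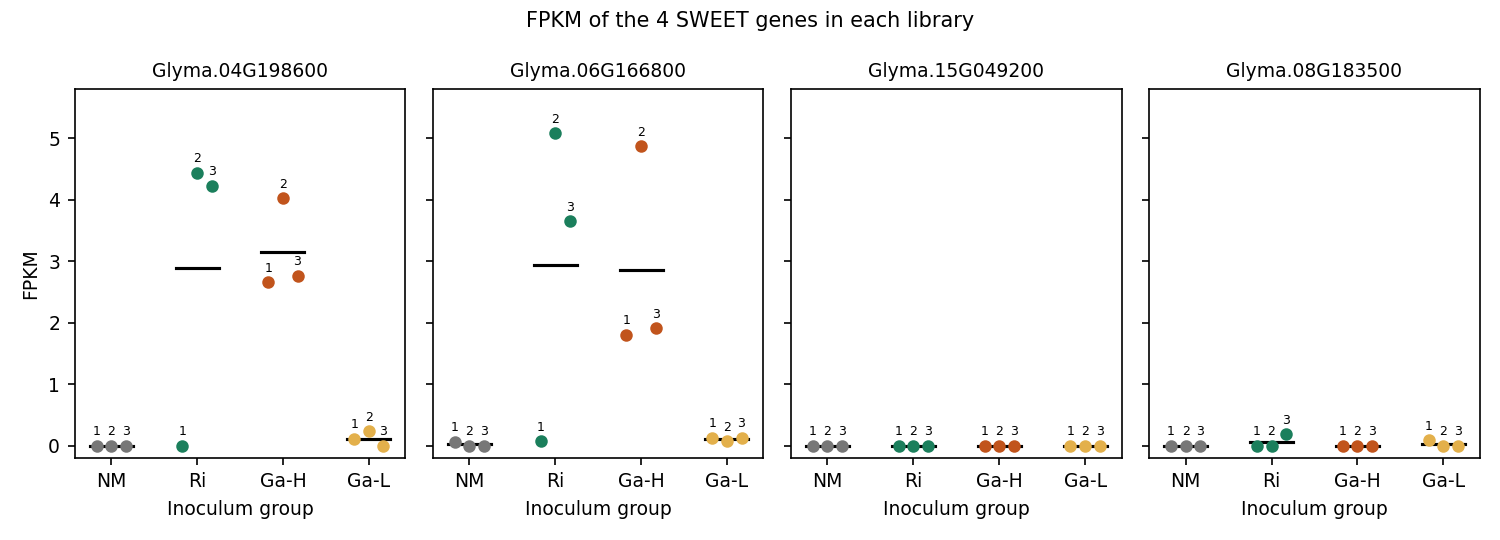
FPKM of each SWEET gene (vertical axis) by group (horizontal axis). Points are single libraries with the replicate number above them and bars are group means (n = 3). The 3 Ga-H libraries and Ri replicates 2 and 3 lie between 1.80 and 5.08 FPKM for the chromosome 4 and 6 genes, and no other value exceeds 0.23.

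By group, Glyma.04G198600 had a mean of 2.89 ± 2.51 FPKM in Ri (SD, n = 3), against 3.15 ± 0.76 for the Ga-H and 0.113 ± 0.115 for the Ga-L libraries. For Glyma.06G166800 the corresponding means were 2.93 ± 2.58, 2.86 ± 1.74 and 0.110 ± 0.035 FPKM, beside 0.020 ± 0.035 in NM. For each gene the means of Ri and Ga-H differed by less than the SD of either group. Where the pair was present these levels lay near or below the middle of the listed genes. In Ri replicate 2, 50.1% of the genes listed in that library had a lower FPKM than Glyma.04G198600 and 53.2% a lower one than Glyma.06G166800. In Ga-H replicate 1 these shares were 38.7% and 31.5%. In bulk roots, a change in the number of cells of a type and a change in RNA per cell cannot be told apart.

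The counts of the pair were divided between its copies by the authors' estimation. In each of the 5 libraries with many counts the separate values were fractional, such as 39.19 and 77.81 in Ri replicate 2, while their sum was whole to within 0.005. The sums were 117 and 96 in Ri replicates 2 and 3 and 50, 113 and 54 in Ga-H replicates 1 to 3. NM held 1, 0 and 0 counts of the pair, Ri replicate 1 held 1, and Ga-L held 3, 3 and 2. The value of either copy alone is therefore uncertain, and the sum does not depend on how the reads were divided.

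**Figure D2:**
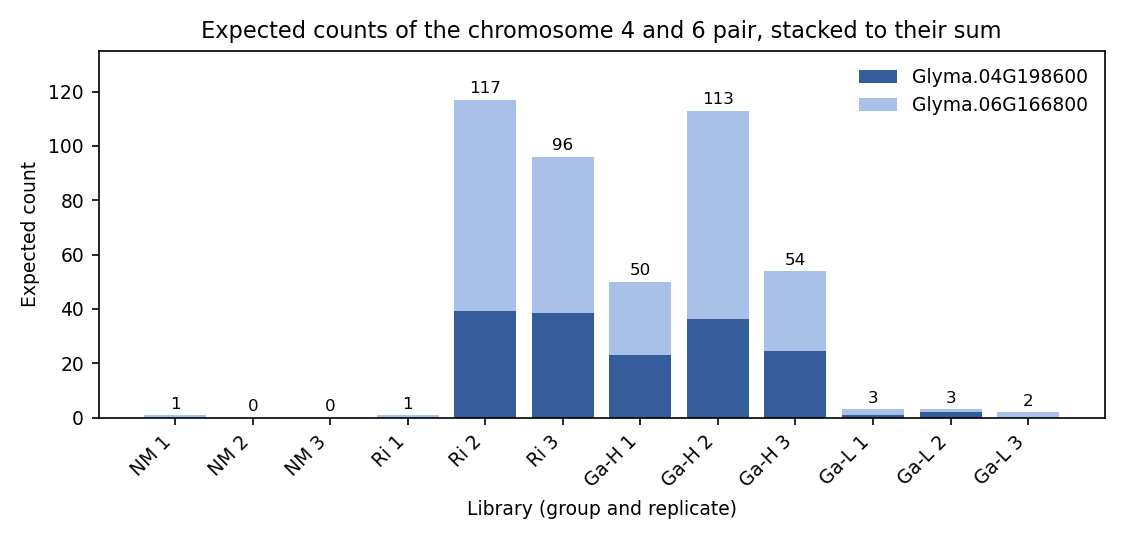
Expected counts of Glyma.04G198600 and Glyma.06G166800 (vertical axis), stacked to their sum, in each of the 12 libraries (horizontal axis). The number above a bar is the sum, which runs from 50 to 117 in Ri replicates 2 and 3 and the Ga-H libraries and from 0 to 3 in the other 7.

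Within the pair, Glyma.04G198600 held 52.9 ± 6.8% of the summed FPKM (SD, n = 5 libraries with at least 10 counts of the pair). Its share was 46.6% and 45.2% in Ri replicate 2 and Ga-H replicate 2, where the pair was highest, and 59.6% and 59.1% in Ga-H replicates 1 and 3, where it was lowest among the 5. Ri replicate 3 lay between them at 53.7%. No NM or Ga-L library reached 10 counts, so the share in colonized roots could not be tested against NM.

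The response of the pair to R. irregularis was read from Ri against NM. Counts of the sum rose from 1 in NM to 214 in Ri, a 221-fold rise per library total (95% Clopper-Pearson interval 39.3 to 8785, counting error only). The fitted log2 change was 7.29 (SE 1.51), and its p-value, adjusted over all genes tested in the comparison by Benjamini-Hochberg, was 0.00957 in edgeR's quasi-likelihood test. Of the 4 SWEET genes, 2 were tested and both rose, where 9.08% of all tested genes were higher in Ri. Both passed the low-count filter only through the Ga-H libraries and Ri replicates 2 and 3, where they were high. Against NM they could therefore be called only as higher, and the number of calls is no separate support. The same limit holds for Ga-H against NM and for Ri and Ga-H against Ga-L. Glyma.04G198600 rose by 7.66 on the log2 scale (SE 1.88; edgeR adjusted p = 0.0289) and was at least 26.8-fold higher than a floor of 3 counts over the NM group allows. It had 0 counts in NM, so its log2 value is set by the small count that edgeR adds, and the floor is the safer figure. Glyma.06G166800 rose by 6.65 (SE 1.46; edgeR adjusted p = 0.0129), from 1 count to 136.37, which is 141-fold per library total. The interval from 24.8 to 5598 was taken on rounded counts. It covers counting error only, not how reads were divided between the copies. The ratios against NM rest on the single count of NM replicate 1. Without that library NM held 0 counts, and the fitted change of the sum, then set by the added count, was 9.13 (SE 2.36; edgeR adjusted p = 0.0455).

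Ri replicate 1 did not take part in this rise. With a library total of 10561997 it held 1 count of the pair, and Ri replicates 2 and 3 together held 213, which is 106-fold more per library total (exact interval 18.9 to 4219.9). Without replicate 1 the sum rose by 7.85 on the log2 scale (SE 0.62; edgeR adjusted p = 8.41e-06), or 330-fold in counts. Both tested genes were again called, where 14.5% of all tested genes were higher in Ri. In the fit that includes replicate 1, Glyma.04G198600 lost its call without any one of NM replicates 1, 2 and 3 and Ri replicates 2 and 3. Glyma.06G166800 lost it without any one NM library. With limma on log2(FPKM + 1) neither passed. The sum kept its call with each library left out in turn, at adjusted p up to 0.047 in edgeR, and lost it with limma on log2(FPKM + 1), at 0.0535.

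Colonization by G. aggregatum at the high level was read from Ga-H against NM. The sum rose here too, from 1 count to 217, a 227-fold rise per library total (exact interval 40.3 to 9000.1). On the log2 scale this was 7.32 (SE 1.51; edgeR adjusted p = 0.0112). Both tested genes rose, where 6.25% of all tested genes were higher in Ga-H, but by the filter they could be called only as higher. Glyma.04G198600 rose by 7.80 (SE 1.86; edgeR adjusted p = 0.0338), at least 29.2-fold above the floor of 3 counts over the NM group, and Glyma.06G166800 by 6.61 (SE 1.47; edgeR adjusted p = 0.0169). The log2 value of Glyma.04G198600 is again set by the added count, as NM held 0. The sum lost its call without NM replicate 1, 2 or 3, at edgeR adjusted p of 0.0623, 0.0553 and 0.0501. The only NM count came from NM replicate 1. Leaving that library out made the pair at least 50.3-fold higher in Ga-H, and leaving out NM replicates 2 and 3 in turn gave 150-fold and 152-fold. Without Ri replicate 1 in the common fit the adjusted p for the sum in edgeR was 1.19e-05.

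Each copy alone lost its call in Ga-H under more of the settings than the sum did. For Glyma.04G198600 this happened without any one NM or Ga-H library and without Ga-L replicate 1 or 2. For Glyma.06G166800 it happened without any one NM library, without Ga-H replicate 2, and with limma on log2(FPKM + 1), filtered or not. Over all alternatives the adjusted p reached 0.0965 and 0.0808.

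At the low level of G. aggregatum colonization the pair lay near 0, with sums of 3, 3 and 2 counts against 1, 0 and 0 in NM. Each Ga-L library thus held more counts of the pair than any NM library, at counts too low to settle the size of a difference. Ga-L held 8 counts and NM 1, which is 8.49-fold per library total with an exact interval from 1.14 to 377 (counting error only). This interval leaves out the spread between libraries, so it does not by itself show a rise. The fitted log2 change of the sum was 2.72 (SE 2.38; edgeR adjusted p = 0.475). None of the 4 SWEET genes was called, where 13.6% of all tested genes were called in either direction. Of the 2 tested, 0 had an unadjusted p under 0.05 in edgeR, and DESeq2 called 0, where it called 17.7% of all tested genes. The log2 values were 3.25 (SE 2.97) for Glyma.04G198600 and 2.08 (SE 2.34) for Glyma.06G166800, which rest on 3 and 5 counts in Ga-L and on 0 and 1 in NM. Without Ri replicate 1 the log2 value of the sum was again 2.72, with an SE of 1.07 and a p of 0.0263 before and 0.0939 after adjustment in edgeR. Glyma.04G198600 then had an unadjusted p of 0.0373 (adjusted 0.117) in edgeR. Without NM replicate 1, which held the 1 NM count, the sum stood at 4.56 (SE 3.78; edgeR adjusted p = 0.453). The 3 comparisons with NM share the NM libraries.

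**Figure D3:**
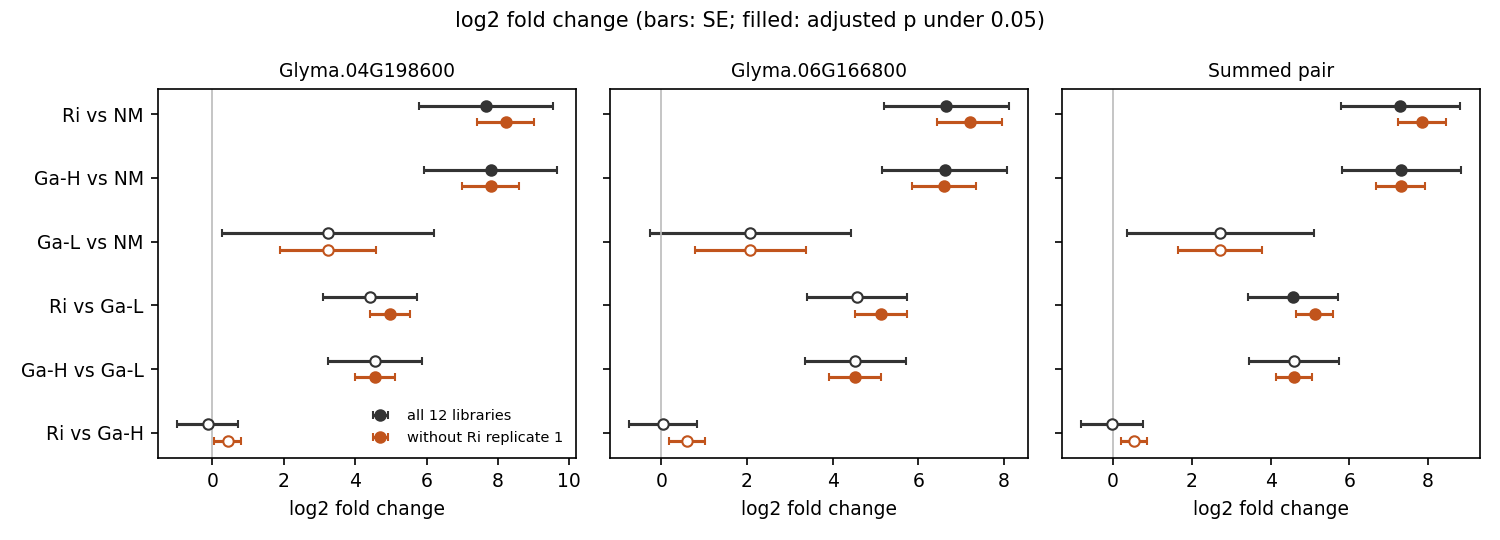
log2 fold change (horizontal axis, bars are SE) of Glyma.04G198600, Glyma.06G166800 and their sum in 6 comparisons (vertical axis), with all 12 libraries (dark) and without Ri replicate 1 (orange); filled points passed an adjusted p of 0.05 in edgeR. For the sum, the SE narrows from 1.14 to 0.46 in Ga-H against Ga-L while the change itself is 4.60 and 4.59.

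High and low colonization by the same fungus were also set against each other. Ga-H held 217 counts of the pair and Ga-L 8, which is 26.7-fold per library total (exact interval 13.3 to 62.7), and no Ga-L library reached the lowest Ga-H library. The log2 difference of the sum was 4.60 (SE 1.14) and did not pass in the fit of all 12 libraries (edgeR adjusted p = 0.0744). None of the SWEET genes was called, where 0.374% of all tested genes were higher in Ga-H. Both tested genes had an unadjusted p under 0.05 in edgeR, and DESeq2 called 2, where it called 2.7% of all tested genes higher in Ga-H. Glyma.04G198600 differed by 4.55 on the log2 scale (SE 1.31; edgeR adjusted p = 0.116) and Glyma.06G166800 by 4.53 (SE 1.17; edgeR adjusted p = 0.0814).

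The call in this comparison turned on a library outside it. Without Ri replicate 1 the sum was higher in Ga-H by 4.59 on the log2 scale (SE 0.46; edgeR adjusted p = 0.00186), and 2 SWEET genes were called, where 2.84% of all tested genes were higher in Ga-H. In a fit of the Ga-H and Ga-L libraries alone the adjusted p of the sum was 0.00395 (SE 0.47, edgeR) and 2 SWEET genes were called, where 3.23% of all tested genes were higher in Ga-H. DESeq2 on all libraries gave the sum an adjusted p of 0.00200. Leaving out any other library gave edgeR values from 0.0616 to 0.263.

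The Ri group was set against each G. aggregatum group. The labels give no level of colonization for Ri, so fungal species and colonization level cannot be told apart in these comparisons. Between Ri and Ga-H the log2 difference of the sum was -0.03 (SE 0.79; edgeR adjusted p = 0.994), and without Ri replicate 1 it was 0.54 (SE 0.33; edgeR adjusted p = 0.352). The values were -0.14 (SE 0.85) for Glyma.04G198600 and 0.04 (SE 0.79) for Glyma.06G166800. No SWEET gene was called, where 0.0165% of all tested genes were called in either direction. Of the 2 tested, 0 had an unadjusted p under 0.05 in edgeR, and DESeq2 called 0, where it called 0.765% of all tested genes. With 1 library left out in turn the difference ran from -0.62 to 0.54, so that its direction was not set.

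Between Ri and Ga-L the sum was higher in Ri, with 214 counts against 8, or 26.1-fold per library total (exact interval 12.997 to 61.2). On the log2 scale the difference was 4.57 (SE 1.14; edgeR adjusted p = 0.0483). With any one library other than Ri replicate 1 left out the call was lost (edgeR adjusted p 0.0642 to 0.164), as it was with the low-count filter removed (0.0729). Without Ri replicate 1 the difference was 5.13 (SE 0.47; edgeR adjusted p = 0.000104), or 38.9-fold in counts. Glyma.04G198600 differed by 4.41 (SE 1.32; edgeR adjusted p = 0.0969) and Glyma.06G166800 by 4.57 (SE 1.17; edgeR adjusted p = 0.0537). No single SWEET gene passed with all libraries, where 1.56% of all tested genes were higher in Ri. Both tested genes had an unadjusted p under 0.05 in edgeR, and DESeq2 called 2, where it called 3.66% of all tested genes higher in Ri. Without Ri replicate 1, 2 were called in edgeR, where 6.46% of all tested genes were higher in Ri.

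Genes with a profile most like that of each member were sought among 34351 others with at least 1 FPKM in some group, by Pearson correlation of log2 CPM over the 12 libraries. Glyma.06G166800 was the gene most like Glyma.04G198600, at r = 0.979, and Glyma.04G198600 came next to the top for Glyma.06G166800. Reads divided between the copies enter this value. After its partner, Glyma.U027300.Wm82.a2.v1, whose ID places it on no chromosome, was most like Glyma.04G198600 (r = 0.972). It had 0.26, 4.53 and 3.15 FPKM in the Ri libraries, 1.32, 4.24 and 1.89 in Ga-H and between 0.21 and 0.63 in NM and Ga-L. Most like Glyma.06G166800 was Glyma.06G220200.Wm82.a2.v1 (r = 0.982), with 0.35, 8.11 and 4.53 FPKM in Ri, 2.27, 3.30 and 3.01 in Ga-H and between 0.14 and 0.50 in NM and Ga-L. Both genes were picked by likeness over the same 12 libraries, so their differences between groups were largely set by that choice. The tests that follow describe them and are no separate support. Against NM, Glyma.U027300 was higher by 3.40 on the log2 scale in Ri and 3.32 in Ga-H (edgeR adjusted p = 0.025 and 0.0373). Glyma.06G220200 was higher by 4.35 and 3.76 (edgeR adjusted p = 0.00781 and 0.0218). In Ga-L neither was called, at 0.89 and 0.98 (edgeR adjusted p = 0.585 and 0.552). Ri against Ga-L gave 2.51 for Glyma.U027300 and 3.37 for Glyma.06G220200, of which the second passed (edgeR adjusted p = 0.101 and 0.0414). Neither passed in Ga-H against Ga-L, at 2.43 and 2.78 (edgeR adjusted p = 0.139 and 0.105), or in Ri against Ga-H, at 0.09 and 0.60 (edgeR adjusted p = 0.977 and 0.776). Ri replicate 1 lay near the NM and Ga-L values in these genes, which follows from how they were chosen. The correlations are a description: a profile that is high in 5 libraries and near 0 in 7 gives high r to any gene with the same division. A correlation of at least 0.9 with the summed pair was found for 130 genes.

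**Figure D4:**
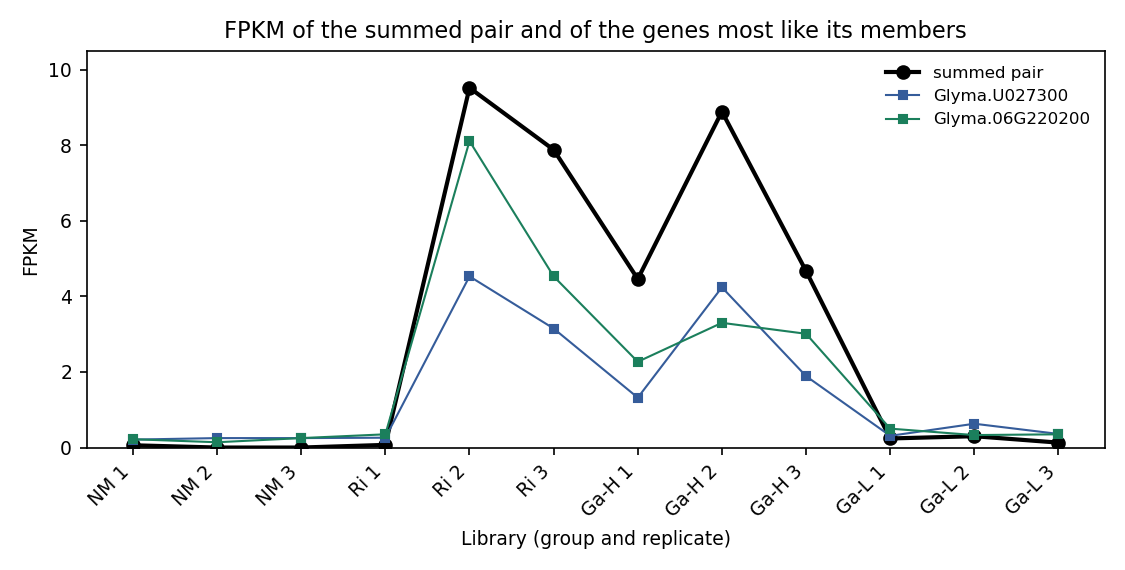
FPKM (vertical axis) of the summed chromosome 4 and 6 pair and of the genes most like its members in each of the 12 libraries (horizontal axis); lines join libraries only to guide the eye. The pair reaches 9.52 FPKM in Ri replicate 2 and 8.89 in Ga-H replicate 2, and Ri replicate 1 lies at 0.07.

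The genes beside the members on their chromosomes were also read. For each member the 5 nearest listed IDs on either side by locus number were taken, 40 in all, of which 28 were tested. Against NM, 4 of the 28 were higher in Ri, where 9.08% of all tested genes were, and in Ga-L 4 were called in either direction, where 13.6% of all tested genes were. In Ga-H 0 of the 28 were called against NM in edgeR, where 6.25% of all tested genes were higher. Of the 28, 5 had an unadjusted p under 0.05 in edgeR, and DESeq2 called 2. No shares over all tested genes are given for these 2 counts, so they are not read as a result. Between Ri and Ga-L, 1 was called, where 1.56% of all tested genes were higher in Ri. It was Glyma.08G183400.Wm82.a2.v1, 0.94 higher in Ri on the log2 scale (edgeR adjusted p = 0.0319) and also named after its value was seen. Against NM this gene was lower in Ga-L, at -0.845, and little changed in Ri, at 0.098 (edgeR adjusted p = 0.0215 and 0.778). Next in number to the copies were Glyma.04G198700.Wm82.a2.v1 and Glyma.06G166700.Wm82.a2.v1, named here after their values were seen. In Ri they rose by 0.96 and 0.67 on the log2 scale (edgeR adjusted p = 0.0475 and 0.0299). In Ga-L, where the SWEET genes were near 0, they rose by 0.95 and 0.66 (edgeR adjusted p = 0.0484 and 0.0315). Their Ga-H values had the same direction, at 0.69 and 0.58, but did not pass (edgeR adjusted p = 0.198 and 0.0731). Such a rise was not particular to this pair. Glyma.15G049300 and Glyma.08G183600, next in number to the GmSWEET10 genes and also named after their values were seen, rose in Ri as well. Their log2 values there were 0.93 and 0.58 (edgeR adjusted p = 0.00816 and 0.0323). In Ga-L they were 0.34 and 0.64, of which the second passed (edgeR adjusted p = 0.25 and 0.0213). Over the 28 genes the log2 values against NM spanned -1.24 to 1.74 in Ri, -1.32 to 2.04 in Ga-H and -2.15 to 0.95 in Ga-L.

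**Figure D5:**
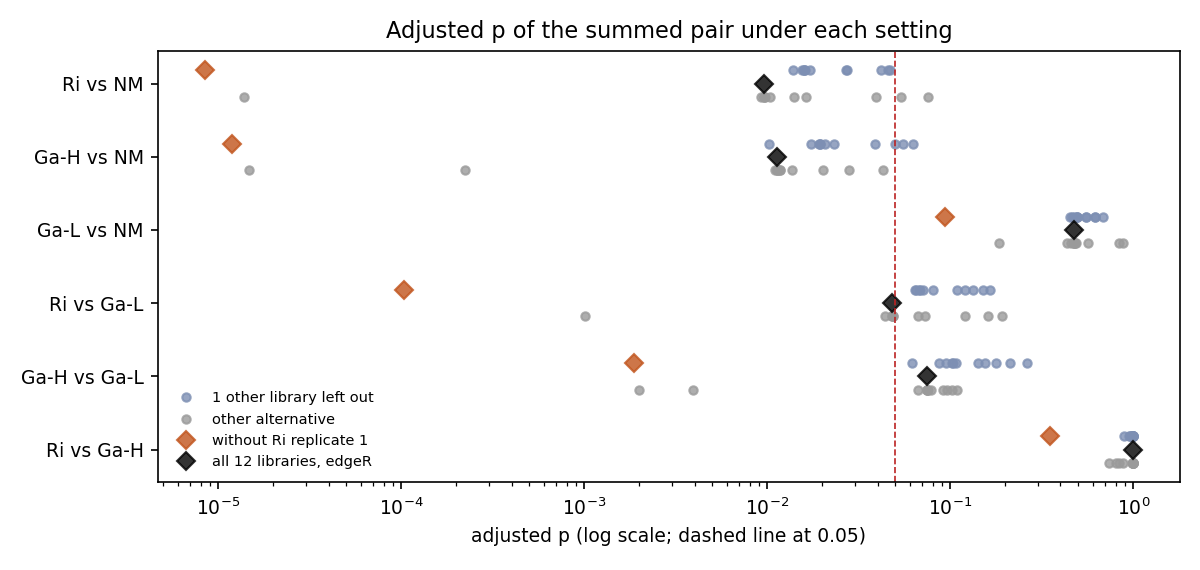
Adjusted p of the summed pair (horizontal axis, log scale) in each of 6 comparisons (vertical axis) under every setting tried; the dashed line marks 0.05. Without Ri replicate 1 (orange) the values lie far below those of all other left-out libraries in the first 2 comparisons and in both comparisons with Ga-L.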

How the data were processed

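Each of the 12 deposited tables holds 1 library, with the authors' expected count, FPKM and length (bases) per gene, per the file headers. Bowtie2, HISAT and RSEM are named without versions or roles in the submitters' processing notes. The authors' expected counts split reads shared by similar genes, and the deposited FPKM values are scaled to library size and length. Genes absent from a table were taken as 0 there.

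Expected counts were rounded and tested in R 4.3.3 with edgeR 4.0.16 (default filter by group, 36323 genes left, TMM scaling, robust quasi-likelihood fit of all 12 libraries with 1 mean per group). P-values were adjusted over all genes by Benjamini-Hochberg, with a threshold of 0.05. SE was derived from the fold change and F statistic. The exact intervals of the ratios were taken on summed counts and cover counting error only, not the spread between libraries. Where a group held 0 counts, the fitted change depends on the small count that edgeR adds, and so does its SE. The fit was tested on simulated data. The pair was tested as 1 summed row in the same way. Alternatives used other scalings, filters, unrounded counts, DESeq2 1.42.0, limma 3.58.1 on log2 FPKM, a replicate block, the compared groups alone, and each library left out.

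The SWEET genes were chosen, and the lists written, with earlier results of these data known. The naming rule took all 4, those without a test as such, and the 2 genes most like each tested one. None of the 59048 rows of the RefSeq table (Glycine_max_v4.0), 43 of them with SWEET symbols, carries an ID of the deposited kind, so other genes of sugar transport, mycorrhiza markers and sequences are not used here.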

Additional observations from a re-analysis of the deposited data

Results flagged for a closer look

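In Ri against Ga-L, a direct test between these groups, the log2 difference of the summed chromosome 4 and 6 pair was 4.568 (SE 1.14; edgeR adjusted p = 0.0483). The call was lost with any one library other than Ri replicate 1 left out, without the low-count filter, with the replicate block and with limma, at adjusted p up to 0.192. Ri against Ga-H gave -0.03 (edgeR adjusted p = 0.994). The Ri libraries held 1, 117 and 96 counts and the Ga-L libraries 3, 3 and 2, so that Ri replicates 2 and 3 lay above all Ga-L libraries and Ri replicate 1 below them. Groups of 3 libraries are too small for a test of single outlying libraries.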

How the results depend on the processing

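Over all alternatives the sum of the pair was higher in Ri and Ga-H than in NM and than in Ga-L, and only Ri against Ga-H changed direction. With limma on log2(FPKM + 1), filtered or not, its log2 value was 2.186 in Ri against NM and 1.926 in Ri against Ga-L, which missed the threshold, and so did 2.902 in Ri against Ga-L with a pseudocount of 0.1. Log2 values with a pseudocount understate the change of genes as low as these. The call in Ri against Ga-L also went when low counts were kept (4.567) or when replicate number entered as a block (4.266). In Ga-H against Ga-L the sum passed with DESeq2 (4.637) and with these groups fitted alone (4.589). With 1 library left out, the log2 value ran from 6.702 to 9.125 in Ri against NM, 6.865 to 9.152 in Ga-H against NM, 2.271 to 4.557 in Ga-L against NM, 4.143 to 4.793 in Ga-H against Ga-L, 3.979 to 5.127 in Ri against Ga-L and -0.6167 to 0.5394 in Ri against Ga-H. The upper ends against NM came without NM replicate 1, where NM held 0 counts of the pair.

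In Ri against NM, 2 SWEET genes were called in edgeR with all libraries, 0 with limma on log2(FPKM + 1), filtered or not, 1 with a pseudocount of 0.1, and 0 to 2 with 1 library left out. In Ga-H against NM 2 were called, 1 with limma on log2(FPKM + 1), filtered or not, and 0 to 2 with 1 library left out. In Ga-H against Ga-L 0 were called, 2 with DESeq2 or these groups alone, and 0 to 2 with 1 library left out. In Ri against Ga-L 0 were called, 1 with library totals unscaled, 2 with DESeq2, and 0 to 2 with 1 library left out. The share of all tested genes that was called also moved with the setting. In Ri against NM 9.08% were higher in Ri with all libraries and 14.5% without Ri replicate 1. This share is not given for every setting, so the counts show only how far the calls moved. The cause of these changes was not tested.

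In Ri against Ga-H, Glyma.06G166800 turned to -0.2203 with limma on log2(FPKM + 1), filtered or not, -0.841 with a pseudocount of 0.1 and -0.2725 with the block. It ran from -0.6226 to 0.6747, and Glyma.04G198600 from -0.5977 to 0.4294, with 1 library left out. None of these passed. The share of Glyma.04G198600 in the pair was 39.43% of counts, and 38.68% of FPKM with no minimum count.

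The replicate numbers share no stated pairing. Same-numbered libraries of different groups deviated together in 6 of 18 pairs (r over 0.1), and differently numbered ones in 8 of 36. The median r was 0.0255 and -0.002. A library was most like its own number in 13 of 36 cases, each a choice among 3 libraries, so these values show no clear pairing. The block changed no other call of the sum or of a SWEET gene. Ri against NM, Ri against Ga-L and Ga-L against NM gave no value when fitted alone, since too few of those libraries reached the filter. The 1 count of the pair in NM and 8 in Ga-L limit what can be said of these groups.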
